A study of Mus musculus with 4 samples.

Results

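The immunoglobulin constant region genes of the mouse were followed in RNA from whole abdominal aortic grafts, which were collected 4 weeks after transplantation. The set held 10 genes, chosen by name from the 54752 gene IDs of the count table: the 8 heavy chain genes Ighm, Ighd, Ighg3, Ighg1, Ighg2b, Ighg2c, Ighe and Igha, and the light chain genes Igkc and Iglc2. All 10 were found. The grafts formed an ALLO group, allografts undergoing chronic rejection per the series title, and an ISO group, whose name is not spelled out, and each group had 2 libraries, so n = 2 wherever a group mean is given. No drug, transgene or genetic change is given for either group, and neither the labels nor the series text states strain, sex, age, pooling, or whether the replicates were different mice. Each p-value is therefore set against the spread of these 4 libraries alone, part of which may be technical.

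An antibody is built from heavy and light chains, and the constant region of the heavy chain sets its class: IgM, IgD, IgG, IgE or IgA. A naive B cell makes IgM and IgD from the same transcript by alternative splicing. After activation it can cut out the DNA between Ighm and a constant gene further along the locus, which is class switching, and then makes IgG, IgE or IgA with the same antigen specificity. Plasma cells, the end stage of B cells, secrete antibody in bulk and fill a large part of their messenger RNA with it. In grafts, antibody against donor antigens is a recognised arm of chronic rejection, and the IgG subclasses differ in how well they bind Fc receptors and complement.

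The heavy chain genes lie on the minus strand of chromosome 12 (mm10), in a stretch of 168 kb that runs from Ighm, nearest the joining segments, to Igha at the far end. Ighm (ENSMUSG00000076617.9) spans 113418558 to 113422730 and Igha (ENSMUSG00000095079.6) 113254830 to 113260236. Igkc (ENSMUSG00000076609.2) lies on chromosome 6, from 70726435 to 70726966, and Iglc2 (ENSMUSG00000076937.3) on chromosome 16, from 19198396 to 19200351. The IgG genes are close relatives. Over their secreted coding sequence Ighg2b and Ighg2c were 85.6% identical, and the other pairs 73.1% to 75.5%, against 40.5% for Ighg1 and Ighm. The subclasses differ most plainly in the hinge, the flexible stretch between the antigen-binding arms and the tail. It is encoded by exon 2 of each gene, shown here 5′ to 3′ from the GENCODE M21 transcripts, with the in-frame triplets TGT and TGC, which encode the cysteines that can tie heavy chains together, in capitals:
Ighg3: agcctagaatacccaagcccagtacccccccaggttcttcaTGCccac
Ighg1: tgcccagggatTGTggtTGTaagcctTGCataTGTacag
Ighg2b: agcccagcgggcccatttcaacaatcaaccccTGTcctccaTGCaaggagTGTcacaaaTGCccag
Ighg2c: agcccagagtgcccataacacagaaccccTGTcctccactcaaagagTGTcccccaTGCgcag

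The exons are chr12:113360529-113360576 (Ighg3), chr12:113329844-113329882 (Ighg1), chr12:113307261-113307326 (Ighg2b) and chr12:113288263-113288325 (Ighg2c), of 48, 39, 66 and 63 bases. They held 1, 4, 4 and 3 such triplets. Despite the likeness, few stretches were the same between genes: of all 50-base stretches in a gene's transcripts, 4.15% of Ighg2b, 5.49% of Ighg2c, 1.58% of Ighg3 and 0.39% of Ighg1 also occurred in another gene, and no 100-base stretch did. None of the 8 heavy chain genes, nor Igkc, shared an exonic base with another annotated gene, whereas 6.2% of the exonic bases of Iglc2 also belong to Iglj2. The labels do not say how reads that matched several genes were counted.

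The libraries held 17532344 to 20194854 counts and 19987 to 22171 detected genes. ISO replicate 1 stood apart from the other libraries in sex-linked transcripts, with 10647 counts of Xist and 0 of Ddx3y, against at most 8 and at least 2105. By these transcripts ISO replicate 1 was female and the other libraries male, so it did not share a mouse with ISO replicate 2. It also stood apart from ISO replicate 2 in B cell genes: the summed level of 10 B cell markers was 50.5 CPM (counts relative to the library's total, scaled for composition) in ISO replicate 1 and 1.87 in ISO replicate 2, against 370.0 and 165.0 in ALLO replicates 1 and 2. Smooth muscle markers were present in every library and all 6 fell in ALLO (summed 27170 and 27449 CPM in ISO, against 1117 and 2312), where 14.8% of all genes tested fell. In whole tissue, fewer cells of a type and less RNA per cell cannot be told apart. By the transcripts above, sex differed within ISO and was not balanced between the groups, so the ISO spread in every test includes it. Sex cannot be told apart from other differences between the ISO libraries.

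The 10 constant region genes together took 7.92% of all counts in ALLO replicate 1 (95% Wilson interval 7.90% to 7.94%) and 2.44% in ALLO replicate 2 (2.43% to 2.45%). They took 0.0562% in ISO replicate 1 (0.0547% to 0.0578%) and 0.00128% in ISO replicate 2 (0.00106% to 0.00154%). These intervals cover counting error only, and PCR reads without molecular identifiers are not independent molecules. The ISO libraries therefore differed from each other by a larger factor than the ALLO libraries did, and the lowest of the 4 held 224 counts of these genes in all. Both ALLO libraries lay above both ISO libraries for 9 of the 10 genes, the exception being Ighe, while 37.1% of all genes tested had that order. Tested across 16498 genes with edgeR's quasi-likelihood test and a Benjamini-Hochberg adjusted p below 0.05, 5 of the 9 genes that could be tested rose in ALLO, none fell, and the other 4 did not pass. Of all genes tested 18.4% rose. The median log2 change of the 9 was 7.37, against 0.03 over all genes.

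The number that passed depended on single libraries. With ISO replicate 1 left out it was 9 of 10, where 14.0% of all genes rose, and with ISO replicate 2 left out also 9 of 10 (11.7%). Leaving out ALLO replicate 1 gave 1 of 9 (11.8%), and leaving out ALLO replicate 2 gave 4 of 10 (13.8%). In such fits the group left with 1 library is assumed to vary like the other. Ighg3, with 3 and 0 counts in ISO, entered the test through ALLO alone and could only be called higher. The gene that passed in all 4 was Ighg3. With all libraries kept, 9 of 10 passed with no filter on low counts (11.9% of all genes), 3 of 10 with a mean count of 10 or more (16.8%), 3 of 9 against a fold of 1.5 (13.6%) and 8 of 9 with the replicate number as a block (16.8%). Scaling by DESeq2 size factors (18.9%), by upper quartile (17.8%) or by library size (21.5%) gave 5. Scaling without the other immunoglobulin and T cell receptor genes (18.5%) also gave 5, but the 10 genes themselves stayed in the scaling. Halved counts (20.6%), DESeq2's Wald test (18.4%) and limma-voom (18.2%) gave 6.

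**Figure D1:**
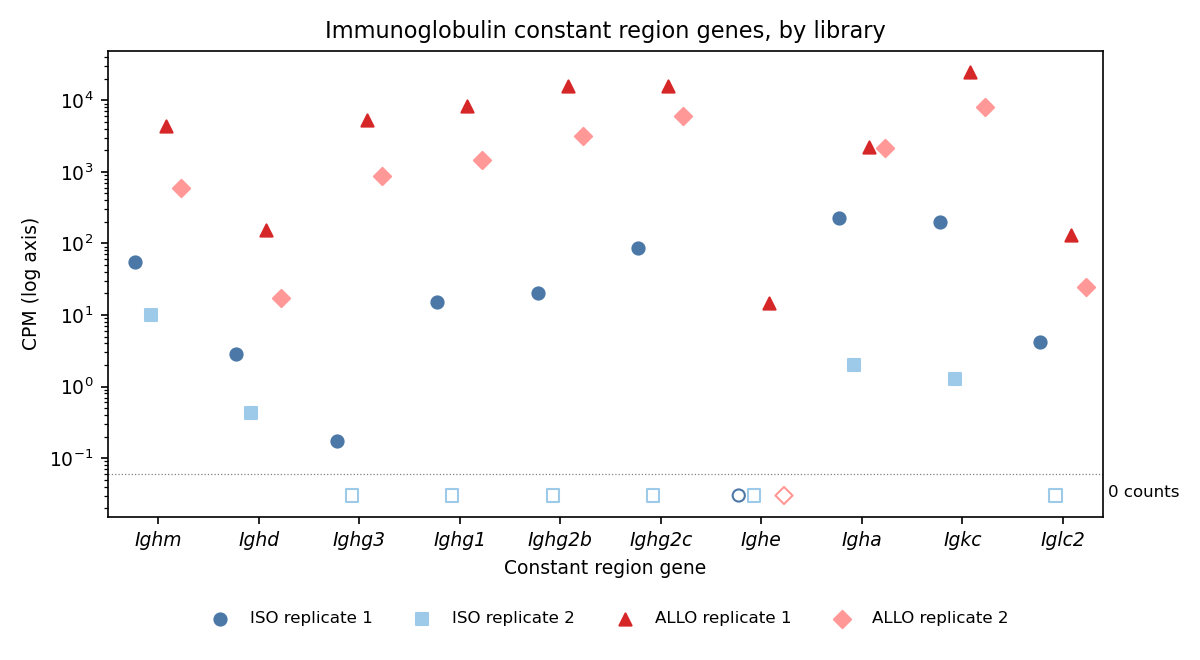
CPM on a log axis of each constant region gene in each of the 4 libraries, heavy chain genes in their order along the locus and then the light chain genes; open symbols under the dotted line mark libraries with 0 counts. Both ALLO libraries sit above both ISO libraries for every gene but Ighe, the ALLO libraries meet at Igha (2252 and 2171 CPM), and the 4 IgG genes are at 0 in ISO replicate 2.

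Ighm, which encodes the IgM heavy chain, had 935 and 163 counts in ISO replicates 1 and 2 and 85646 and 13235 in ALLO replicates 1 and 2. It averaged 32.3 ± 31.7 CPM in ISO (SD, n = 2) and 2501 ± 2687 in ALLO, a log2 change of 6.28 ± 1.43 (SE, edgeR adjusted p = 0.0272). The groups did not overlap, and the lower ALLO library was 11.0-fold above the higher ISO library. The change was 7.97 without ISO replicate 1 and 4.26 without ALLO replicate 1, where the call was lost (edgeR adjusted p = 0.0512). Leaving out ISO replicate 2 gave 5.49, and leaving out ALLO replicate 2 gave 7.11.

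Ighd, whose IgD chain marks mature naive B cells, had 48, 7, 3042 and 382 counts in the same order of libraries. Its log2 change was 5.74 ± 1.40 (edgeR adjusted p = 0.0321), and 3.46 without ALLO replicate 1, where the call was lost (edgeR adjusted p = 0.0820). It ranged from 4.92 to 7.64 when another library was left out, and the call was also lost with limma-voom (adjusted p = 0.161). Ighd took 4.85%, 4.09%, 3.41% and 2.79% of the Ighm and Ighd output per kb of exon, lower in both ALLO libraries than in both ISO libraries. The ISO shares rest on 48 and 7 counts. The 95% Wilson interval of the share of counts (3.30% to 7.16% and 1.85% to 11.5%) covered the ALLO replicate 1 value of 3.43% in both. The ALLO replicate 2 value of 2.81% lay below the interval of ISO replicate 1 and inside that of ISO replicate 2. With 2 libraries against 2, an exact two-sided permutation test cannot go below p = 0.333, which it gave here.

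Of the IgG genes, Ighg3 had 3 and 0 counts in ISO and 104416 and 19489 in ALLO. The ratio of summed counts, scaled for library size, was 33619 (95% counting interval 7859 to 467387), with an edgeR adjusted p of 0.00515. It was the heavy chain gene with the widest gap between the groups: its lower ALLO library was 5043-fold above its higher ISO library, against 154-fold for Ighg2b. The interval covers counting error only. As a gene that entered the test through ALLO alone, Ighg3 could only be called higher. The fitted log2 change was 15.0, and 13.21 without ALLO replicate 1, 15.78 without ALLO replicate 2 and 14.04 without ISO replicate 2, and the ALLO libraries differed 6.07-fold.

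Ighg1, the subclass that in the mouse is linked to interleukin-4, had 259 and 0 counts in ISO and 162727 and 32250 in ALLO. It rose from 7.57 ± 10.7 to 4913 ± 4878 CPM, a log2 change of 9.34 ± 2.52 (edgeR adjusted p = 0.0429). Ighg2b, a subclass known to be favoured by TGF-beta, had 347 and 0 counts in ISO and 309305 and 68868 in ALLO, a log2 change of 9.87 ± 2.67 (edgeR adjusted p = 0.0432). Both lay just inside the threshold. Their calls were lost without ALLO replicate 1 (7.64 and 8.31, edgeR adjusted p = 0.0802 and 0.0840) and without ALLO replicate 2 (10.13 and 10.63, edgeR adjusted p = 0.0586 and 0.0629). They kept the call without ISO replicate 2, at 8.32 and 8.85. Without ISO replicate 1 the other ISO library was at 0, so the fitted change is no measure of size.

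Mouse strains carry either Ighg2c or its allelic form Ighg2a at this place in the locus. Since the strains are not stated, how far the Ighg2c counts and shares given here include or miss reads of the other form cannot be told. Ighg2c, the subclass that interferon-gamma favours, had 1495 and 0 counts in ISO and 307042 and 131882 in ALLO. It averaged 43.7 ± 61.8 CPM in ISO and 10882 ± 6924 in ALLO, and its log2 change of 7.96 ± 2.78 did not pass (edgeR adjusted p = 0.0841). Igha, whose IgA is the antibody of mucosal surfaces, had 3858 and 33 counts in ISO and 43826 and 47835 in ALLO. Its level was 114 ± 158 CPM in ISO and 2212 ± 57.1 in ALLO, a log2 change of 4.28 ± 1.87 (edgeR adjusted p = 0.142). The ALLO libraries were nearly level for Igha, with a CPM ratio of 1.04, while the ISO libraries differed 113-fold. The lower ALLO library was still 68.5-fold above the higher ISO library for Ighg2c and 9.63-fold for Igha. Both genes passed when either ISO library was left out (Ighg2c 6.94 and Igha 3.27 without ISO replicate 2, edgeR adjusted p = 0.000593 and 0.0018, and edgeR adjusted p = 8.99e-05 for each without ISO replicate 1). Neither passed without ALLO replicate 1 (edgeR adjusted p = 0.155 and 0.234) or without ALLO replicate 2 (0.120 and 0.217).

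Ighe, the IgE gene, had 286 counts in ALLO replicate 1 and 0 in the other 3 libraries, and was left out by the filter on low counts. A count of 0 allows up to 6 counts, or 3 read pairs, which is 0.325 CPM in ISO replicate 1, 0.342 CPM in ISO replicate 2 and 0.297 CPM in ALLO replicate 2 before scaling for composition. Ighe was thus detected in 1 of 4 libraries, at 14.7 CPM. Fcer1a, the chain of the high-affinity IgE receptor that binds IgE on mast cells and basophils, had at most 2 counts in any library.

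Igkc, the kappa light chain constant gene, had 3375 and 21 counts in ISO and 484220 and 177920 in ALLO. It was at 99.3 ± 139 CPM in ISO and 16480 ± 11884 in ALLO, a log2 change of 7.37 ± 2.38 (edgeR adjusted p = 0.0690). Iglc2, a lambda constant gene, had 71, 0, 2538 and 542 counts, a log2 change of 5.21 ± 1.6 (edgeR adjusted p = 0.0600). Neither passed, and both did when either ISO library was left out (Igkc 6.36 and Iglc2 4.20 without ISO replicate 2, edgeR adjusted p = 0.000957 and 0.0137). Neither passed without ALLO replicate 1 (Igkc 6.40 and Iglc2 3.60, edgeR adjusted p = 0.144 and 0.208) or without ALLO replicate 2 (edgeR adjusted p = 0.101 and 0.0540). The groups did not overlap in either gene, and the ISO libraries differed 156-fold in Igkc.

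Within each library, the make-up of the heavy chain output was compared by class, as counts per kb of exon. In ISO replicate 1, Igha took 43.5%, Ighg2c 33.9%, Ighm 14.9%, Ighg2b 3.90%, Ighg1 3.01%, Ighd 0.760% and Ighg3 0.0359%. In ISO replicate 2, Ighm took 84.3%, Igha 12.1% and Ighd 3.60%, and no IgG count was seen. That library held 203 heavy chain constant counts, so a class at 0 can still hold up to 2.96% of them by the floor of 3 read pairs (3.63% by the upper limit of the 95% Wilson interval), and the 95% Wilson interval of the Ighm share of counts ran from 71.6% to 86.9%. In ALLO replicate 1 Ighg2c took 45.0%, Ighg2b 22.4%, Ighg1 12.2%, Ighm 8.82%, Ighg3 8.07%, Igha 3.19%, Ighd 0.311% and Ighe 0.0350%. ALLO replicate 2 gave 58.3% for Ighg2c, 15.1% for Ighg2b, 10.5% for Igha, 7.30% for Ighg1, 4.55% for Ighg3, 4.12% for Ighm and 0.118% for Ighd.

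The classes were thus ordered differently in each ISO library, and on this scale ALLO was led by Ighg2c and then Ighg2b in both libraries. The 4 IgG genes together took 87.6% and 85.3% of heavy chain output in ALLO, against 40.8% and 0% in ISO. The ALLO mean was 86.4% ± 1.69 (SD) and the ISO mean 20.4% ± 28.9. The difference of 66.0 percentage points had p = 0.333 by the exact two-sided permutation test, the smallest p that 2 against 2 allows. Igha went the other way, at 43.5% and 12.1% in ISO and 3.19% and 10.5% in ALLO, although its own level was higher in both ALLO libraries. The gap between 12.1% in ISO replicate 2 and 10.5% in ALLO replicate 2 lay within the counting interval of the former, whose Igha share of counts (16.3%) had a 95% Wilson interval of 9.89% to 24.0%.

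**Figure D2:**
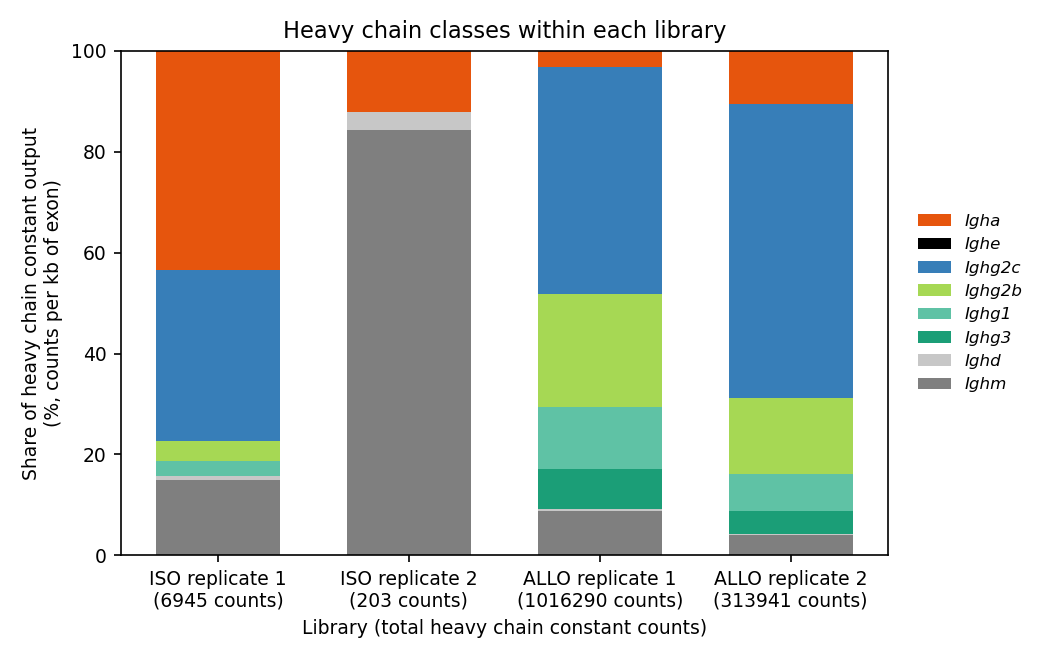
Stacked bars of the share, in percent, of each heavy chain class in the heavy chain constant output (counts per kb of exon) of each library, with the total heavy chain constant counts under each bar. IgG genes (greens and blue) fill 87.6% and 85.3% of the ALLO bars and 40.8% and 0% of the ISO bars, and ISO replicate 2 rests on 203 counts.

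The class-switched genes (the IgG genes, Igha and Ighe) took 84.3% and 12.1% of the heavy chain output in ISO and 90.9% and 95.8% in ALLO. The means were 48.2% ± 51.1 (SD) and 93.3% ± 3.46, a difference of 45.1 percentage points (exact two-sided permutation p = 0.333, the smallest possible). This difference hung on ISO replicate 2: it was 8.99 points without that library and 81.2 points without ISO replicate 1. Among switched genes alone, Igha took 51.6% in ISO replicate 1, and 3.51% and 11.0% in ALLO. In ISO replicate 2, all 33 counts of switched genes were Igha (95% Wilson interval 80.6% to 100%).

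Variable segments give a second reading of rearranged antibody transcripts, since a switched or unswitched antibody message carries a V segment in front of its constant region. The 185 heavy chain V genes together had 770 and 4 counts in ISO and 317623 and 43971 in ALLO. Per 100 heavy chain constant counts this was 11.1, 1.97, 31.3 and 14.0, lowest in ISO replicate 2. Since counts are per gene, how much of the constant region output came from rearranged messages cannot be told, for switched and unswitched classes alike. Igkv segments gave 41.9, 38.1, 56.1 and 37.1 counts per 100 of Igkc, values that lay closer together. The ISO replicate 2 value rests on 8 Igkv and 21 Igkc counts and is thus uncertain. Light chain output was 1.94-, 1.78- and 1.97-fold that of heavy chain per kb in ISO replicate 1, ALLO replicate 1 and ALLO replicate 2. In ISO replicate 2 it was 0.385-fold, from the same 21 light chain constant counts.

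Within IgG, shares could be taken in 3 libraries, since ISO replicate 2 had no IgG count. Per kb of all annotated exons, Ighg2c took 83.0% in ISO replicate 1, 51.3% in ALLO replicate 1 and 68.4% in ALLO replicate 2. Ighg2b took 9.54%, 25.6% and 17.7%, Ighg1 7.36%, 13.9% and 8.56%, and Ighg3 0.0879%, 9.21% and 5.34%. Ighg2c was thus the larger part of IgG in all 3, with a smaller share in both ALLO libraries than in ISO replicate 1, and the other subclasses had a larger share in both ALLO libraries. With 1 ISO library there is no test of these differences. The gap between ISO replicate 1 and ALLO replicate 2 in the Ighg1 share of counts (12.3%, 95% Wilson interval 10.5% to 14.5%, and 12.8%) was within counting error.

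The lead of Ighg2c over Ighg2b depended on the length used. The annotation gives Ighg2c 1326 exonic bases and Ighg2b 2678, because the membrane form of Ighg2b ends in a long last exon (2566 bases in all) and that of Ighg2c in a short one (1214). The secreted forms are nearly equal, with 1111 and 1114 bases. Scaled by the secreted form, a choice made after the data had been seen, Ighg2c and Ighg2b took 34.5% and 34.6% of IgG in ALLO replicate 1 and 51.9% and 27.1% in ALLO replicate 2. The shares of counts were 34.8% and 35.0%, and 52.2% and 27.3%. In ALLO replicate 1 the genes were therefore level on these scales, while in ALLO replicate 2 and ISO replicate 1 (70.8% and 16.4% by the secreted form) Ighg2c led on every scale used. The table counts whole genes, so secreted and membrane transcripts cannot be told apart in it.

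**Figure D3:**
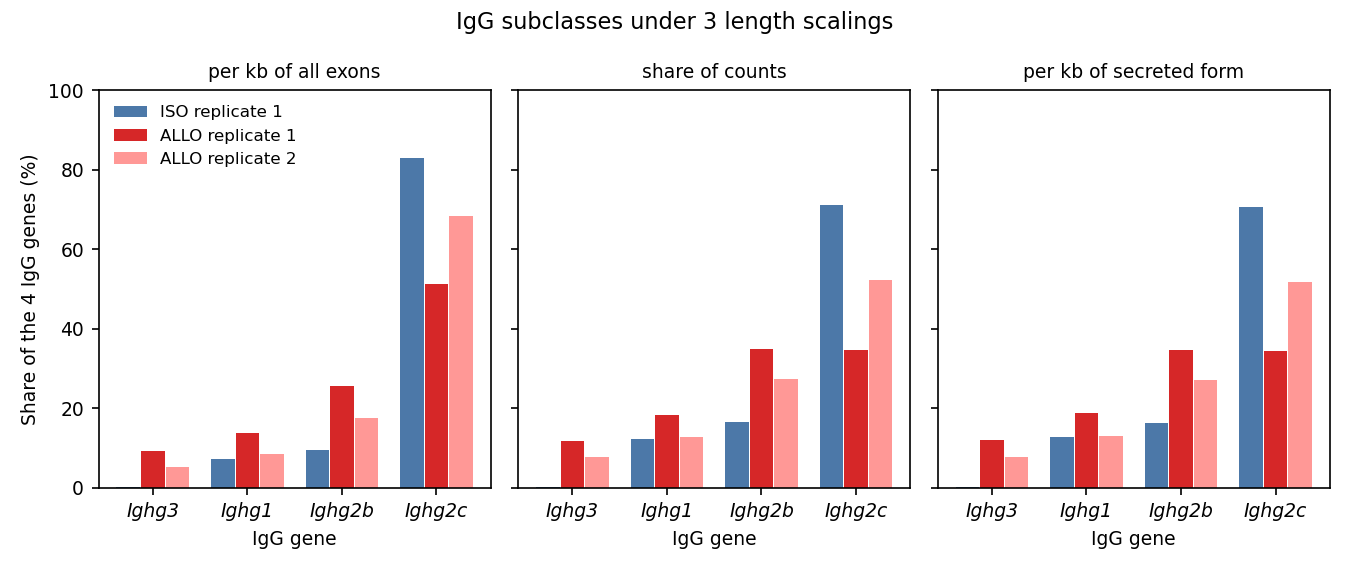
Share, in percent, of each IgG gene among the 4 IgG genes in the 3 libraries with IgG counts, per kb of all exons (left), as a share of counts (middle) and per kb of the secreted form (right). In ALLO replicate 1 the Ighg2c and Ighg2b bars are 51.3% and 25.6% on the left and 34.5% and 34.6% on the right, and Ighg3 is close to 0 in ISO replicate 1 on all scales.

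Set out in their order along the chromosome, the heavy chain genes differed between the ALLO libraries in a graded way. The CPM ratio of ALLO replicate 1 to ALLO replicate 2 was 7.33 for Ighm and 9.02 for Ighd, 6.07 for Ighg3 at 61.5 kb from the start of Ighm, and 5.71 for Ighg1 at 92.2 kb. It was 5.08 for Ighg2b at 115.0 kb, 2.64 for Ighg2c at 134.0 kb and 1.04 for Igha at 162.0 kb. From Ighd onward each gene had a smaller ratio than the one before it, leaving out Ighe, which had no count in ALLO replicate 2. Since each ratio is taken within a gene, its length does not enter. This is a comparison of 1 library with 1 library, and it has no replicate check. In the ISO pair the same ratio, replicate 1 over replicate 2, was 5.56 for Ighm, 6.64 for Ighd and 113 for Igha. It thus did not fall toward Igha, although it rests on 163, 7 and 33 counts in ISO replicate 2. The IgG genes, with no count there, gave no ISO ratio. The change between the groups did not follow the order along the chromosome over the whole locus. On the log2 scale it was 6.28 at Ighm and 5.74 at Ighd, 15.0 at Ighg3, 9.34 at Ighg1, 9.87 at Ighg2b, 7.96 at Ighg2c and 4.28 at Igha.

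**Figure D4:**
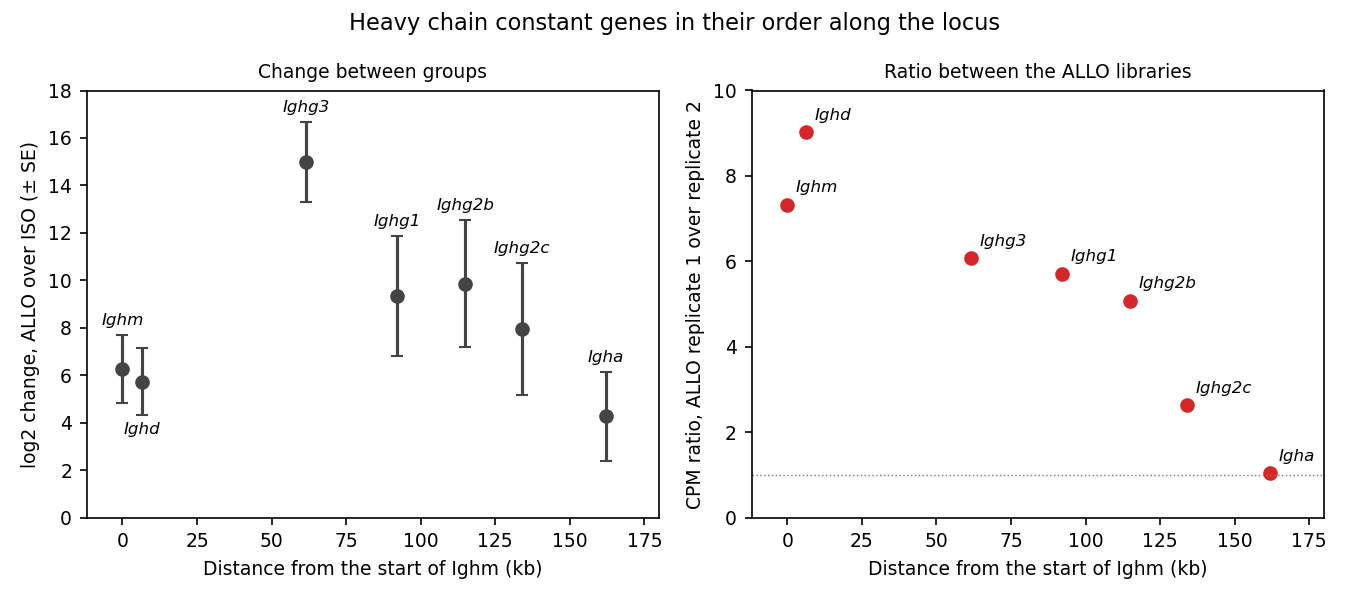
Heavy chain constant genes by distance in kb from the start of Ighm; the left panel gives the fitted log2 change of ALLO over ISO with its standard error (n = 2 per group), the right panel the CPM ratio of ALLO replicate 1 over ALLO replicate 2, with a dotted line at a ratio of 1. Ratios fall from 9.02 at Ighd to 1.04 at Igha, and Ighe is not drawn because it had 0 counts in 3 libraries.

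On the light chain side, Igkc took 98.2%, 100%, 99.5% and 99.7% of the Igkc and Iglc2 output per kb, with groups that overlap (exact two-sided permutation p = 1). ISO replicate 2 rests on 21 counts, all Igkc (95% Wilson interval 72.2% to 100%). Iglc2 is 1 of 4 annotated lambda constant genes. Its near copy Iglc3 was 96.2% identical over the coding sequence and Iglc1 72.3%, as the start of each coding sequence shows, with bases unlike Iglc2 in capitals (mm10, minus strand, chr16:19198793-19198852, chr16:19065622-19065681 and chr16:19062012-19062071):
Iglc2: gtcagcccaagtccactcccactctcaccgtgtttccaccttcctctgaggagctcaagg
Iglc3: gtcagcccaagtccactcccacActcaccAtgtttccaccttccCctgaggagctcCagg
Iglc1: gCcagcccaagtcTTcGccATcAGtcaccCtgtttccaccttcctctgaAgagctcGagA

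Iglc3 differs from Iglc2 at 4 of these 60 bases and Iglc1 at 12. Of the 50-base stretches of Iglc2, 7.65% also occur in Iglc3, so the split between these 2 genes is less certain than the level of Iglc1. Of those of Iglc3, 22.33% occur in Iglc2 or in 2010309G21Rik. The latter covers 20.6% of the exonic bases of Iglc3 on the other strand, and the strand setting of the counts is not given. Iglc1 had 145, 0, 5420 and 8692 counts in the usual order of libraries and rose in ALLO (log2 change 6.31 ± 1.73, edgeR adjusted p = 0.0445). Iglc3 had 22, 0, 1099 and 596 counts (5.99 ± 1.19, edgeR adjusted p = 0.0191). They were 2 of 3 testable genes in a list of other constant and surrogate light chain genes, and neither passed without ALLO replicate 1. In the fit with all libraries 18.4% of all genes tested rose. Of lambda output per kb, Iglc1 took 66.0% in ISO replicate 1, 64.4% in ALLO replicate 1 and 89.7% in ALLO replicate 2. Iglc2 took 24.0%, 22.4% and 4.15% in these libraries. Iglc1 was thus the leading lambda gene in each library with lambda counts. With all 4 lambda genes counted, Igkc took 92.9%, 100%, 98.0% and 94.0% of light chain output. ALLO replicate 2, the library with the larger Igha share, also had the larger lambda share of the ALLO pair.

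Genes that assemble and secrete antibody were measured beside the constant regions. Of 14, 7 rose, none fell and 7 did not pass, with a median log2 change of 3.64, while 18.4% of all genes tested rose. Mzb1, an endoplasmic reticulum protein that helps IgM assembly, had 80, 4, 4322 and 1238 counts (5.81 ± 1.35, edgeR adjusted p = 0.0287). Prdm1 and Derl3, a regulator of plasma cell fate and a factor of protein quality control in secretory cells, had log2 changes of 4.46 and 4.92 (edgeR adjusted p = 0.0239 and 0.0250), and Sdc1, a plasma cell syndecan that other cells also make, had one of 1.88 (edgeR adjusted p = 0.00444). Leaving out ISO replicate 1 or 2 gave 10 or 9 of these 14 genes (14.0% and 11.7% of all genes), and leaving out ALLO replicate 1 or 2 gave 1 or 8 (11.8% and 13.8%). Of 10 B cell markers 1 passed, a smaller share than over all genes. The log2 changes of the 10 ran from 2.40 to 5.79, with a median of 3.27, against 0.03 over all genes. The ISO libraries differed widely in them (summed 50.5 and 1.87 CPM in replicates 1 and 2). The gene that passed was Cr2, a complement receptor (5.79 ± 0.91, edgeR adjusted p = 0.0106). The number of B cell markers became 10 or 6 with ISO replicate 1 or 2 left out, and 1 or 2 with ALLO replicate 1 or 2 left out. Of 9 plasma cell markers 7 rose, and 2 without ALLO replicate 1. Their summed level was 307 and 202 CPM in ISO and 3918 and 1553 in ALLO. All of them but Slamf7 are also among the 14 genes above, so the lists are not separate support. Cd79a and Cd79b are likewise both among those 14 and among the B cell markers. Xbp1 (198 and 146 CPM) and Sdc1 (49.6 and 51.9) made up most of the ISO sums. Jchain, at 38.5 and 0.362 CPM in ISO replicates 1 and 2, and Mzb1, at 4.68 and 0.241, differed far more. Sdc1 alone of these markers was not lower in ISO replicate 2.

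Of 20 enzymes and repair factors of class switching 2 rose, 1 fell and 17 did not pass, with a median log2 change of 0.17. Of all genes tested 18.4% rose and 14.8% fell. Exo1, an exonuclease of mismatch repair that also acts in dividing cells, had 93 and 53 counts in ALLO and 0 in both ISO libraries. It thus entered the test through ALLO alone and could only be called higher. Dclre1c, the Artemis nuclease of end joining, changed by 2.63 ± 0.47 and Trp53bp1, a factor that protects broken DNA ends, by -0.84 ± 0.21 (edgeR adjusted p = 0.0146 and 0.0360). The lower call was lost without ISO replicate 2, without either ALLO library and with the replicate block, and 1 to 3 genes of the list rose when 1 library was left out.

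Among 20 genes for signals that direct switching, 17 could be tested, and 11 rose and none fell (median 2.62), while 18.4% of all genes rose. Cd40lg, the T cell ligand that licenses switching, had 86 and 85 counts in ALLO and 0 in ISO. Its receptor gene Cd40 rose by 3.31 ± 0.31 (edgeR adjusted p = 0.00395), Ifngr1, a receptor chain for interferon-gamma, by 1.69 ± 0.20, and Il6, which promotes plasma cells, had 145 and 83 counts in ALLO and 0 in ISO. Il4, the cytokine tied to Ighg1 and Ighe, had 66 and 32 counts in ISO and 24 and 32 in ALLO (-1.10 ± 0.57, edgeR adjusted p = 0.200). Ifng, tied to Ighg2c, had 0 in both ISO libraries and 63 and 57 in ALLO (edgeR adjusted p = 0.0108), and Tgfb1, tied to Ighg2b and Igha, changed by 1.31 ± 0.36 (edgeR adjusted p = 0.0449). Cd40lg, Il6 and Ifng had 0 counts in ISO, so they entered the test through ALLO alone and could only be called higher. Il4, Ifng and Tgfb1 are given outside the rule for naming genes and were chosen after their values had been seen. The same holds for Xbp1, Fcer1a, Pigr, Mcpt8, Cxcl13, Ccl19 and Ccl21a.

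Receptors that read antibody by class rose in 7 of 9 testable cases, with none lower and a median of 4.17, while 18.4% of all genes tested rose. The IgG receptor genes Fcgr1, Fcgr2b, Fcgr3 and Fcgr4 had log2 changes of 5.19, 4.27, 3.85 and 5.33 (edgeR adjusted p from 0.00216 to 0.0127). They are also macrophage genes, and 4 of 5 macrophage markers rose (summed 301 and 215 CPM in ISO, 1825 and 1515 in ALLO). Fcgr1 is itself 1 of these 5 markers and part of the sums. Pigr, which carries IgA and polymeric IgM across epithelia, had 6, 0, 113 and 0 counts and was not tested. Markers of some other cells that a graft could hold also moved. All 5 T cell markers rose (4.74 and 2.05 CPM in ISO, 211 and 195 in ALLO). Of 4 testable mast cell and basophil genes only Kit rose (2.60 ± 0.47). The other testable ones had log2 changes of -0.43 to -0.09 and did not pass, and the median was -0.17. Mcpt8 was at 0 throughout. Of the lymph node and follicle genes 2 of 3 testable ones rose, Cr2 and Glycam1. Cr2 is also in the list of B cell markers. Glycam1, of high endothelial venules, had 0 counts in ISO and 575 and 400 in ALLO. It entered the test through ALLO alone and could only be called higher. Cxcl13, the B cell attractant, had 366 and 4 counts in ISO and 421 and 207 in ALLO, and Ccl21a had at most 2. Ccl19, a chemokine of lymphoid tissue, ran the other way, with 31 and 5 counts in ISO and 3 and 1 in ALLO, and was not tested. Cxcl13 was thus as high in ISO replicate 1 as in ALLO, in the ISO library with the more constant region counts, and its part in that difference was not tested. Adipocyte genes were present in all libraries (117 and 103 CPM in ISO, 228 and 227 in ALLO).

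The summed heavy chain constant genes had centred log2 CPM values of -1.78, -6.82, 5.23 and 3.36 over the 4 libraries. Among 13008 genes outside the antigen receptor loci with a mean of at least 50 counts, the nearest by Euclidean distance was Jchain (distance 1.01), which encodes the chain that joins IgM and IgA into polymers. It had 658, 6, 44183 and 17011 counts, and its log2 change of 6.29 ± 1.99 did not pass (edgeR adjusted p = 0.0655). Slpi, a secreted protease inhibitor, was next (1.07), with 148, 6, 18689 and 13941 counts. Cd8a (2.04), Il7r (2.09) and Gbp2b (2.28) followed, and were nearly level between the ALLO libraries, unlike the summed heavy chain genes. The distances rest on 4 libraries and describe likeness only.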

How the data were processed

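RNA sequencing of aortic grafts, 2 ISO and 2 ALLO libraries, was used as deposited by the authors: raw read counts per gene, in the column layout of featureCounts, whose table also gives each gene's exonic length and coordinates. The submitters' processing notes list mm10 as the build, and R 4.0.3, DESeq2 1.30.0, featureCounts and Subread 1.6.4 as tools. Per the labels' protocols, ribosomal RNA was removed and libraries were amplified by PCR. The sources used here do not give the aligner, annotation release, strand setting or treatment of multi-mapping reads. Names were found for 54723 of 54752 IDs in GENCODE M21. Of genes with 1 to 20 counts, 68.0% to 74.6% per library had an even count, as when both mates of a pair are counted, so intervals used counts divided by 2 and a floor of 6 counts (3 pairs).

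Groups came from the sample titles. Genes were filtered with filterByExpr (minimum count 10), scaled by TMM (factors 0.926 to 1.09) and tested with edgeR 4.0.16 (glmQLFit, glmQLFTest, group only, Benjamini-Hochberg adjusted p under 0.05 over 16498 genes). Standard errors are the log2 change over the square root of the quasi-likelihood F. Shares were taken from counts per kb of exonic length and compared by exact permutation. The secreted form was taken as the transcript with the fewest exons. Identity came from global alignment (Biopython 1.88). Alternatives were other scalings and filters, DESeq2 1.42.0, limma-voom (limma 3.58.1), a replicate block, each library left out, halved counts and other length scalings. Calculations used R 4.3.3, Python 3.11.15 and scipy 1.17.1.

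Members and gene lists were chosen with earlier results of these data known. Named genes were the 10 members, of each list's genes past the threshold up to 4 of lowest adjusted p in its commoner direction and up to 2 in the other, and the 5 nearest profiles (log2 CPM, prior count 2). Not every gene so named is printed.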

Additional observations from a re-analysis of the deposited data

How the results depend on the processing

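The number of constant region genes called higher was 5 in the reported fit and ranged from 1 to 9 when 1 library was left out. It was 9 with no filter on low counts (Ighe then among them, edgeR adjusted p = 0.0410), 3 with a mean count of 10 or more and 3 against a fold of 1.5. Other scalings, halved counts, DESeq2's Wald test and limma-voom gave 5 or 6, and every fit run gave each tested gene a higher level in ALLO. The cause of the differences between filters was not tested. With the replicate number as a block the count was 8. Of all genes tested, 18.4% rose in the reported fit, 11.9% with no filter and 13.6% against a fold of 1.5. The share was 16.8% with a mean count of 10 or more and with the block. With other scalings, halved counts, DESeq2's Wald test and limma-voom it ran from 17.8% to 21.5%. The labels do not say that a number pairs libraries, and the deviations of same-numbered libraries correlated at 0.097.

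The switched share kept its direction in every alternative. The kappa difference (0.539 percentage points, ALLO minus ISO) was -0.454 with all lambda genes and ranged from -0.359 to 1.44 when 1 library was left out. Adding 0.5 to every class gave differences of -2.54 for Ighg1, -3.19 for Ighg3 and -1.36 for Ighg2c within IgG, against 3.88, 7.18 and -23.2, because it gives ISO replicate 2, with no IgG count, shares set by the gene lengths alone. No IgG subclass difference could be taken without ISO replicate 1. Shares in ISO replicate 2 rest on 203 heavy chain and 21 light chain constant counts, although its total depth was close to that of ISO replicate 1.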
